A study of Mus musculus with 12 samples.

Results

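The plasma cell programme regulators are 7 genes, Prdm1, Irf4, Xbp1, Jchain, Ell2, Edem1 and Tent5c, which were chosen by symbol and matched by Entrez ID to the table of expression values. Of the 7 genes, 6 were among the 9842 genes of the table. Every gene of the table reached 1 FPKM (a level per length: fragments per kilobase and per M reads of the library) in at least 3 of the 12 libraries, and all 6 were tested. Tent5c was not analysed here.

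RNA was sequenced from splenic B cells of female C57BL/6J mice in 4 groups of 3 libraries, each library made from 2000 sorted cells. The TrB_WT and TrB_KO groups were unstimulated transitional B cells, recent arrivals from the bone marrow, sorted as B220+ CD93+ from wild-type and LSD1-knockout mice. The eMZB_WT and eMZB_KO groups were sorted as B220+ CD21+ CD1d+ after transitional cells of each genotype had spent 3 days with BAFF, a survival cytokine, and DL1, a Notch ligand that directs B cells towards the marginal zone fate. Cells of all 4 groups were gated as Thy1.1- F4/80- CD11b-. LSD1, encoded by Kdm1a, is a histone demethylase. Neither the way it was deleted nor the age of the mice is stated in the labels. The labels number the replicates but do not say whether they came from separate mice, so p-values here reflect library-to-library spread, part or all of which may be technical.

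Plasma cells arise when an activated B cell gives up its B cell programme and turns into a secretory cell. IRF4 and BLIMP-1, the product of Prdm1, drive this switch, and XBP1 expands the endoplasmic reticulum (ER) that folds and exports antibody. ELL2 is an elongation factor that favours the secreted form of the immunoglobulin heavy chain mRNA, EDEM1 directs misfolded glycoproteins to degradation, and the J chain links IgM and IgA subunits into polymers. Marginal zone B cells are known for turning into plasma cells faster than follicular B cells do.

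Each of the 6 measured genes lay at 1 locus of mm10 (GRCm38). Prdm1 (Entrez 12142) occupied chromosome 10 from 44437174 to 44528558, and Irf4 (16364) chromosome 13 from 30749233 to 30766981. Xbp1 (22433) ran from 5520641 to 5525993 on chromosome 11, and Jchain (16069) from 88519809 to 88527897 on chromosome 5. Ell2 (192657) lay on chromosome 13 from 75707484 to 75772361, and Edem1 (192193) on chromosome 6 from 108824045 to 108859356. The values are per gene, so spliced and unspliced Xbp1 mRNA were not separated. Ell2 overlaps an antisense gene, 1700037F03Rik, and the libraries do not mark strand, so reads of that transcript cannot be told apart from Ell2 reads where both are transcribed.

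The 250 bases before the start site are shown for Prdm1, Xbp1 and Jchain, the members whose level differed between cell types in the tests below. They are from RefSeq (GRCm38.p6), which holds a window for all 7 genes. Each is written 5′ to 3′ on the strand of the gene: chr10:44458749-44458998 (minus strand) for Prdm1, chr11:5520391-5520640 (plus strand) for Xbp1 and chr5:88527898-88528147 (minus strand) for Jchain. The Prdm1 window lies inside the locus given above, before a start site other than the outermost one. Capitals mark matches on either strand to ACGTG, the core of the element bound by XBP1, or to CCACG or CCAAT, the parts of the ER stress response element.
Prdm1: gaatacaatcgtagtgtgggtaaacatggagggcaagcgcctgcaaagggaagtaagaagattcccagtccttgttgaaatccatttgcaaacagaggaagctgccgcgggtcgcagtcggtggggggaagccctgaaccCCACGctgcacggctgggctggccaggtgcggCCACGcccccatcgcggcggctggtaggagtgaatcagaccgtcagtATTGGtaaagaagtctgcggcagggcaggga
Xbp1: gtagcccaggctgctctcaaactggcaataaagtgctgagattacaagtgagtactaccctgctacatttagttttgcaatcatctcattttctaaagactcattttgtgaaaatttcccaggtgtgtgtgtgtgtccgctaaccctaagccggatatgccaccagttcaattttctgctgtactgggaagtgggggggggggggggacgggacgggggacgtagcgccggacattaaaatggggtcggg
Jchain: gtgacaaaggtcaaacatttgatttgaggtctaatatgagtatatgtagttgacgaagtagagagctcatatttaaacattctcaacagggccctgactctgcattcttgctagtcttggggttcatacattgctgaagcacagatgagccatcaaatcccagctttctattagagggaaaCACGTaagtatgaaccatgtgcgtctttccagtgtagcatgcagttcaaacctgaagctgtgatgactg
The Prdm1 window held CCACG 2 times, at 110 and 78 bases before the start, and CCAAT on the opposite strand. The Jchain window held ACGTG on the opposite strand, and the Xbp1 window held no match to the motifs searched. Among all 32851 windows of this length, 28.3% held CCACG, 33.8% CCAAT and 16.6% ACGTG, and among the 7 genes 3, 4 and 1 windows did. The full XBP1-type element TGACGTGG (0.563% of windows), the interferon-type GAAANNGAA (7.13%), the ETS-IRF composite GGAANNGAA (6.99%) and the BLIMP-1-type GAAAGTGAA (0.481%) were found in none of the 7. TGACGTGG contains ACGTG, and GAAAGTGAA is 1 form of GAAANNGAA. A match describes the letters alone and does not show a binding site.

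Library totals ran from 7.24 to 19.35 M reads, of which 1.96 to 8.78 M lay in listed genes. TrB_KO replicate 3 stood apart, with 61.6% of its reads in listed genes against 16.7% to 41.7% in the other libraries. Levels are given below as FPKM divided by a median-of-ratios factor per library, called scaled FPKM. Kdm1a was at 8.54, 7.93 and 3.47 scaled FPKM in TrB_WT and 3.35, 2.56 and 2.99 in TrB_KO. It was at 7.53, 8.63 and 4.68 in eMZB_WT and 2.65, 2.53 and 2.66 in eMZB_KO, so every wild-type library was above every knockout library, the third replicate of each wild type group least. Its log2 changes of -0.87 (TrB) and -1.10 (eMZB) were not called (limma, adjusted p = 0.249 and 0.148). Without these 2 wild-type libraries and TrB_KO replicate 3 they were -1.22 and -1.31 (limma, adjusted p = 0.00159 and 0.000368). The 2 wild-type libraries left out were the lowest in Kdm1a of their groups, so this fit cannot test Kdm1a. Of the listed markers, all 4 for transitional B cells fell from TrB to eMZB in both genotypes, and 6 (wild type) and 7 (knockout) of 9 for marginal zone B cells rose. These markers include Cd93, Cr2 (CD21) and Cd1d1 (CD1d), whose proteins were used to sort the cells, so the counts are no independent check of identity. Of markers of other cells, 4 of 10 myeloid, 1 of 8 T cell, 1 of 6 erythroid and platelet and 0 of 6 NK cell genes were listed, and none of those listed was at 0 in all libraries. From TrB_WT to eMZB_WT, 3 of the 4 myeloid markers (Adgre1, Tyrobp and Itgam) and the erythroid marker Hbb-bs fell, while in the knockout and with LSD1 loss none of these 5 was called. As deposited none of the 5 was called in wild type either. With voom on recovered reads 1 myeloid marker was called higher with LSD1 loss in eMZB, and 1 was called lower in the knockout cell type change. With limma on scaled FPKM all 4 myeloid markers were above 0 with LSD1 loss in eMZB (median log2 change 0.52). Of these, 2 had an unadjusted p under 0.05, as had 5.39% of all genes.

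Of the 6 measured regulators, Prdm1 and Xbp1 rose between wild-type transitional and marginal zone cells, and Jchain fell between the knockout cells. LSD1 loss within a cell type gave no call for any of them. Only the eMZB cells had spent 3 days with BAFF and DL1. Cell type and culture therefore cannot be told apart in any comparison of eMZB with TrB, here or below. A gene was called where the adjusted p of limma, over all 9842 genes, was under 0.05. In wild type 2 of 6 members were called, both higher, where 27.4% of all genes were called (14.6% higher). In the knockout 1 of 6 was called, lower, where 27.4% of all genes were called (13.2% lower). The libraries did not overlap for 3 of 6 members in wild type (Prdm1, Xbp1 and Ell2), where 45.1% of all genes did not, and for 2 of 6 in the knockout (Jchain and Edem1), where 43.9% did not. The members' median log2 change was 0.36 in wild type and 0.04 in the knockout, where over all genes it was 0.00 and -0.01.

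**Figure D1:**
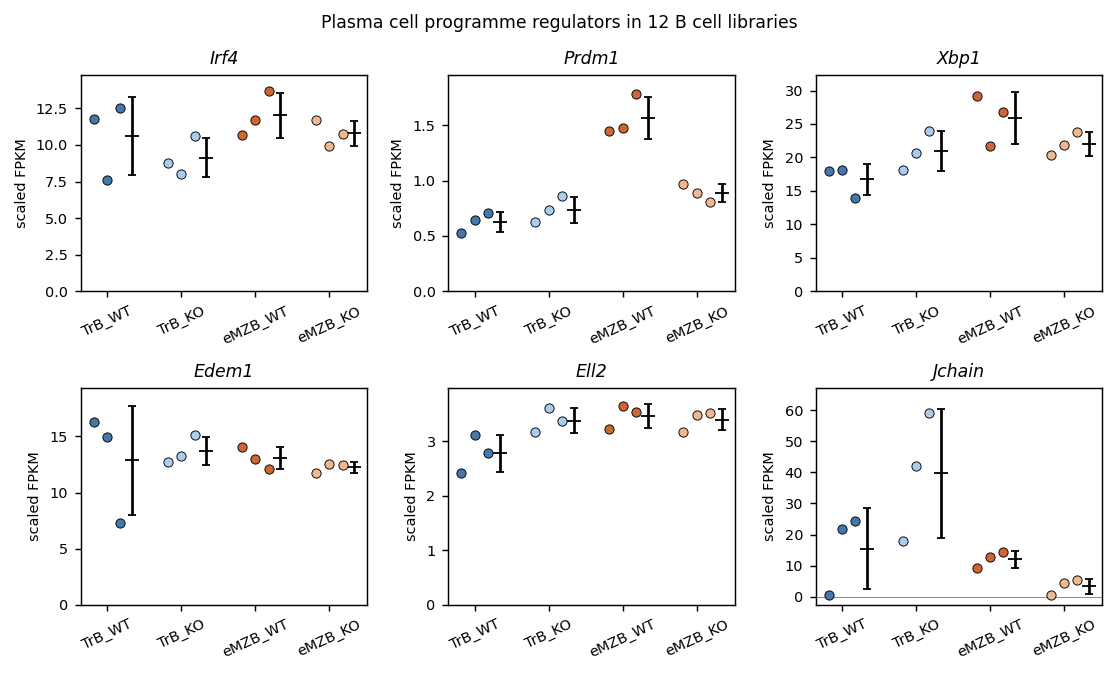
Scaled FPKM of the 6 measured regulators in each of the 12 libraries (points, replicates 1 to 3 from left to right), with the mean and SD of each group (bar, n = 3). The 3 eMZB_WT libraries are the highest for Prdm1, between 1.45 and 1.78, and Jchain spreads from 0.405 to 24.2 within TrB_WT.

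Prdm1, the repressor that silences the B cell programme, was at a low level per length in every group. It stood at 0.531, 0.644 and 0.707 scaled FPKM in TrB_WT and at 1.45, 1.47 and 1.78 in eMZB_WT, from 24 to 35 and from 60 to 250 reads. The groups did not overlap, and the wild-type mean was 2.50-fold higher in eMZB (1.57 ± 0.188 against 0.627 ± 0.0891, SD, n = 3). On the log2(scaled FPKM + 1) scale, which understates changes of low genes, it rose by 0.66 (SE 0.13, limma, adjusted p = 0.00319). On recovered reads with voom the change was 1.35, and with a pseudocount of 0.1 it was 1.20. Prdm1 was called in all 12 fits that left out 1 library. The summed level of the 4 listed myeloid markers moved with the same comparison: it was 17.1 to 24.96 scaled FPKM in TrB_WT against 10.8 to 12.7 in eMZB_WT. For the knockout it was 17.99 to 23.6 in transitional and 16.7 to 23.1 in marginal zone cells. The part of such cells in the changes of Prdm1 and Xbp1 was not tested.

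In the knockout Prdm1 was at 0.624, 0.731 and 0.857 in TrB_KO and at 0.973, 0.889 and 0.810 in eMZB_KO. These ranges overlapped, and the log2 change of 0.12 (SE 0.13) was not called (limma, adjusted p = 0.546, 95% interval -0.17 to 0.41). Every eMZB_KO library was below every eMZB_WT library, with means of 0.890 ± 0.0816 and 1.57 ± 0.188 (SD, n = 3). That difference of -0.44 (SE 0.13) was not called (limma, adjusted p = 0.433). With voom on recovered reads it was -0.84 and was called (limma, adjusted p = 0.0343, the lowest of 19 alternatives, which ran to 0.9999834). In transitional cells the change with LSD1 loss was 0.09 (SE 0.13, limma, adjusted p = 0.846). The interaction, the change with LSD1 loss in eMZB minus that in TrB, which equals the knockout minus the wild-type cell type change, was -0.53 (SE 0.19) and was not called (limma, adjusted p = 0.686). The cell type change of Prdm1 was therefore not shown to differ between genotypes. The comparisons of eMZB_WT with TrB_WT and with eMZB_KO share the eMZB_WT libraries.

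Irf4 encodes the dose-dependent factor that acts with BATF or PU.1 in B cells and with BLIMP-1 in plasma cells. It was at 11.8, 7.58 and 12.5 scaled FPKM in TrB_WT and at 8.76, 8.02 and 10.6 in TrB_KO. In eMZB_WT it was at 10.7, 11.7 and 13.7, and in eMZB_KO at 11.7, 9.92 and 10.7. All 4 ranges overlapped in the 4 comparisons of groups, and the order of the means, eMZB_WT (12.02), eMZB_KO (10.8), TrB_WT (10.6) and TrB_KO (9.12), had no step beyond the spread. The log2 cell type changes were 0.19 in wild type (95% interval -0.17 to 0.54) and 0.22 in the knockout (-0.13 to 0.58). With LSD1 loss they were -0.18 in TrB (-0.53 to 0.17) and -0.14 in eMZB (-0.49 to 0.21). None was called (limma, adjusted p from 0.347 to 0.9999).

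Xbp1, the transcription factor of the unfolded protein response whose mRNA is spliced by IRE1, had the highest mean level per length of the 6 members in every group but TrB_KO, where Jchain was higher. It was at 17.96, 18.19 and 14.01 scaled FPKM in TrB_WT and at 29.2, 21.7 and 26.9 in eMZB_WT. The groups did not overlap, and the mean was 1.55-fold higher in eMZB_WT (25.9 ± 3.84 against 16.7 ± 2.35, SD, n = 3). The gene rose by 0.60 on the log2 scale (SE 0.14, limma, adjusted p = 0.00604) and was called in all 12 fits that left out 1 library. As deposited, without scaling, its change was 1.42, where the median of all genes was 0.67.

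The knockout groups were closer to each other for Xbp1. It was at 18.2, 20.7 and 24.0 scaled FPKM in TrB_KO and at 20.3, 21.8 and 23.8 in eMZB_KO, and the log2 change of 0.07 (SE 0.14) was not called (limma, adjusted p = 0.744). Every TrB_KO library was above every TrB_WT library by a narrow margin, 18.198 against 18.192 at the nearest. The change with LSD1 loss was 0.31 (SE 0.14) in TrB and -0.22 (SE 0.14) in eMZB, and neither was called (limma, adjusted p = 0.472 and 0.9999). Without the 3 libraries named above the TrB change was 0.09. The interaction of -0.53 (SE 0.19) was not called (limma, adjusted p = 0.686).

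Jchain, the polymeric immunoglobulin joining chain that marks antibody-secreting cells, was the most variable member. It was at 0.405, 21.9 and 24.2 scaled FPKM in TrB_WT, where replicate 1 had 7 reads and the others 454 and 367. In TrB_KO it was at 17.9, 42.0 and 59.2, in eMZB_WT at 9.11, 12.6 and 14.5, and in eMZB_KO at 0.658, 4.26 and 5.27. The TrB_WT libraries thus ran from below the lowest eMZB_KO library to above the highest eMZB_WT library, and every eMZB_KO library was below every eMZB_WT and every TrB_KO library.

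Between the knockout groups the Jchain mean fell from 39.7 ± 20.7 to 3.40 ± 2.42 scaled FPKM (SD, n = 3), which was 11.7-fold lower. The ratios between libraries of the same replicate number were 27.2, 9.85 and 11.2. Jchain fell by 3.27 on the log2 scale (SE 0.91, limma, adjusted p = 0.0175). The call was lost without TrB_KO replicate 2 (log2 change -3.16, limma, adjusted p = 0.0527) and without eMZB_KO replicate 1 (-2.67, adjusted p = 0.0790). It held in the other 10 fits that left out 1 library.

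In wild type the Jchain means were 15.5 ± 13.1 scaled FPKM in TrB and 12.1 ± 2.73 in eMZB (SD, n = 3). The log2 change, a difference of mean logs, had the opposite sign to these means, at 0.47 (SE 0.91, limma, adjusted p = 0.735), and without TrB_WT replicate 1 it was -0.90. With LSD1 loss the change was 1.97 (SE 0.91) in TrB and -1.76 (SE 0.91) in eMZB, and neither was called (limma, adjusted p = 0.502 and 0.9999). Without TrB_WT replicate 1 the TrB change was 0.61, and without eMZB_KO replicate 1 the eMZB change was -1.16. The interaction of -3.73 (SE 1.28) was not called (limma, adjusted p = 0.686). As deposited it was -4.17 and was called (limma, adjusted p = 0.00613, the lowest of 19 alternatives, which ran to 0.990), where the median of all genes was -0.46 and 15 genes were called. After scaling, a difference of the Jchain cell type change between genotypes was not shown.

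Genes chosen as markers of plasma cells were read beside Jchain. Of 7 such markers, Sdc1 (syndecan-1), Slamf7 and Derl3 were listed, and none of the 3 was at 0 in all libraries. In transitional cells their summed level was 14.2 to 15.5 scaled FPKM for wild type and 18.1 to 19.5 for the knockout. In marginal zone cells it was 11.6 to 15.4 for wild type and 11.4 to 13.0 for the knockout. TrB_KO was the highest group and did not overlap any other, as a group sum with no test. Slamf7 had the highest mean of the 3 in every group, 8.31 scaled FPKM in TrB_WT against 4.98 (Derl3) and 1.70 (Sdc1). The sum therefore leans on Slamf7 and is no measure of plasma cell content. Replicates 1 and 2 of TrB_WT had sums of 14.2 and 15.2 with Jchain at 0.405 and 21.9. In TrB_KO these replicates had 18.3 and 18.1 with Jchain at 17.9 and 42.0. Within each wild-type group the sum and Jchain had the same order of libraries, and within each knockout group they did not. Between the knockout groups, Slamf7 fell by 0.45 and Sdc1 fell by 0.72 on the log2 scale (limma, adjusted p = 0.00205 and 0.0208), and Derl3 changed by -0.52 with no call (0.0551). The Sdc1 call held in 8 of 12 fits that left out 1 library and was lost without TrB_KO replicate 1 or 3 or eMZB_KO replicate 1 or 2, and without the 3 libraries named above. Without those 3 libraries 2 of the 3 markers, Slamf7 and Derl3, were called lower. As deposited none of the 3 markers was called. Fewer cells of a type and less RNA per cell cannot be told apart in bulk samples, and the part of these cells in the Jchain difference was not tested.

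**Figure D2:**
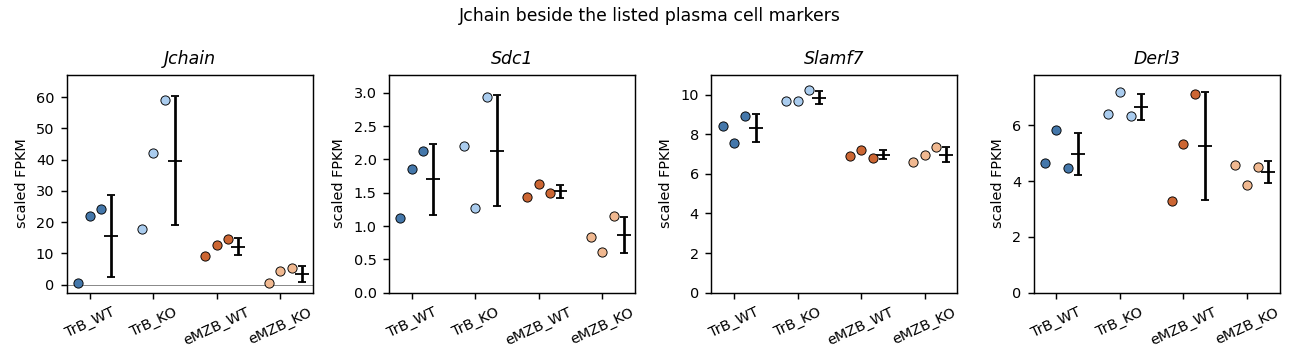
Scaled FPKM of Jchain and of the 3 listed plasma cell markers in each library (points, replicates 1 to 3 from left to right), with the mean and SD of each group (bar, n = 3). Slamf7 in TrB_KO lies at 9.66 to 10.2, above all other groups, and Sdc1 in eMZB_KO reaches at most 1.15.

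Ell2, the elongation factor, was at 2.42, 3.11 and 2.79 scaled FPKM in TrB_WT and at 3.16, 3.60 and 3.37 in TrB_KO. In eMZB_WT it was at 3.22, 3.65 and 3.53, and in eMZB_KO at 3.17, 3.48 and 3.52. TrB_WT was the lowest group and overlapped none of the others, while the other 3 groups overlapped one another. The log2 differences were 0.22 with LSD1 loss in TrB (SE 0.10, limma, adjusted p = 0.516) and 0.25 for the wild-type cell type change (SE 0.10, adjusted p = 0.0959), so neither was called. The knockout cell type change of Ell2 was 0.00 with a 95% interval of -0.22 to 0.23.

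Edem1, which recognises misfolded glycoproteins in the ER, was at 16.3, 15.0 and 7.30 scaled FPKM in TrB_WT and at 12.7, 13.3 and 15.1 in TrB_KO. In eMZB_WT it was at 14.1, 13.0 and 12.1, and in eMZB_KO at 11.7, 12.6 and 12.5. Replicate 3 of TrB_WT, one of the libraries with low Kdm1a for its label, was the lowest of the 12. No Edem1 change was called. The wild-type cell type change was 0.09 (SE 0.21, limma, adjusted p = 0.779) with all libraries and -0.25 without that library (adjusted p = 0.0828). With LSD1 loss in TrB it was 0.15 with all libraries and -0.18 without it.

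In the 2 comparisons of LSD1 loss no member was called. In transitional cells 0 of 6 were called by limma, where 0.498% of all genes were, and 2 members (Xbp1 and Jchain) had an unadjusted p under 0.05, as had 9.91% of all genes. With voom on recovered reads 0 were called there. In eMZB 0 of 6 were called, where 0.406% of all genes were, 1 member (Prdm1) had an unadjusted p under 0.05 (5.39% of all genes), and voom called 1. The libraries of the groups did not overlap for 2 of 6 members in TrB (Xbp1 and Ell2), where 10.5% of all genes did not, and for 2 of 6 in eMZB (Prdm1 and Jchain), where 18.4% did not. All 6 log2 changes were below 0 in eMZB and 5 of 6 above 0 in TrB, with medians of -0.18 and 0.19, where over all genes they were 0.00 and 0.01. Without the 3 libraries named above the TrB median was 0.08, with 4 of 6 above 0. The interaction gave 0 calls among the 6 with limma and with voom, where 0.0102% of all genes were called. There 3 members (Prdm1, Xbp1 and Jchain) had an unadjusted p under 0.05, as had 6.85% of all genes.

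**Figure D3:**
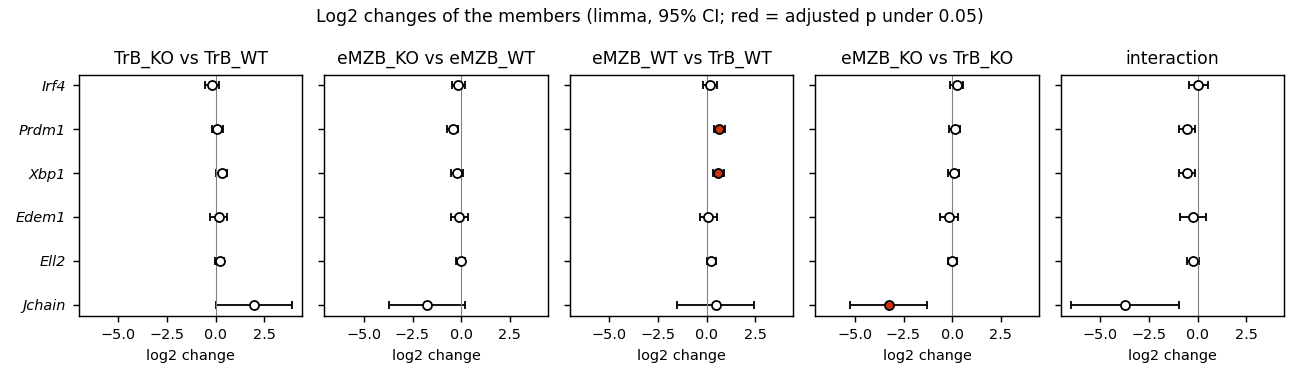
Log2 changes of the 6 members with 95% intervals from limma in the 4 comparisons and the interaction; filled points have an adjusted p under 0.05. The 3 filled points are Prdm1 (0.66) and Xbp1 (0.60) between wild-type cells and Jchain (-3.27) between knockout cells.

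Among other genes of the plasma cell state, more fell than rose between the cell types after scaling, while as deposited 2 were higher and 0 lower in wild type. Of 28 such genes 16 were listed, and 2 rose and 8 fell from TrB_WT to eMZB_WT (median log2 change -0.35). The 16 include Sdc1, Slamf7 and Derl3, the markers read beside Jchain above. The lists here and below also share genes, among them Eaf2, Tnfrsf13b and Spib, so their counts are not separate results. Over all genes, 27.4% were called in each genotype. Mzb1, a chaperone of marginal zone B and plasma cells, rose by 0.92 on the log2 scale, and Cd38, a surface enzyme, rose by 0.86. Eaf2, a partner of ELL proteins, fell by 1.54, and Txndc5, an ER disulphide isomerase, fell by 0.90. In the knockout 2 rose and 9 fell (median -0.52), with Mzb1 at 0.60, Eaf2 at -1.50 and Txndc5 at -1.35. LSD1 loss called 0 of the 16 with limma in either cell type, with 5 (TrB) and 3 (eMZB) at an unadjusted p under 0.05. Over all genes, 9.91% (TrB) and 5.39% (eMZB) were under that level.

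The transcription factors that hold the B cell programme included the known targets and opponents of BLIMP-1. Of 17 factors 16 were listed, and 4 rose and 9 fell in wild type, with a median of -0.47 (as deposited 2 were higher and 1 lower). The share of all genes called was 27.4% in each genotype. Bach2, which represses Prdm1, fell by 1.01 and Pax5, the B cell identity factor, fell by 0.82. Spib and Id3 fell by 1.37 and 0.82, while Myc rose by 1.38. In the knockout 3 rose and 9 fell, with Bach2 at -0.90, Pax5 at -0.72 and Myc at 1.34.

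With LSD1 loss 1 factor was called in each cell type, where 0.498% (TrB) and 0.406% (eMZB) of all genes were. With voom on recovered reads 0 were called in TrB and 2 in eMZB. Without the 3 libraries named above 1 was called in TrB, lower, and 2 in eMZB, both higher. As deposited 0 were called in either cell type. In eMZB, Zbtb32, a zinc finger repressor that acts with BLIMP-1, was at 4.67, 4.90 and 5.86 scaled FPKM in eMZB_KO and at 1.91, 2.17 and 1.26 in eMZB_WT, and it rose by 1.15 (limma, adjusted p = 0.00477). The groups did not overlap, and the call held in all 12 fits that left out 1 library but not on the deposited scale. In TrB, Myc rose by 0.53 (limma, adjusted p = 0.0390), a call that held in 2 of 12 such fits, those without TrB_WT replicate 2 and without eMZB_KO replicate 3. Bach2 differed by -0.43 and -0.31 with LSD1 loss in TrB and eMZB, with no call (limma, adjusted p = 0.430 and 0.9999).

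The unfolded protein response and ER quality control genes were read beside Xbp1 and Edem1. Of 34 genes 33 were listed, and 11 rose and 4 fell in wild type, with a median log2 change of 0.16. The share of all genes called was 27.4% in each genotype. Pdia4, an ER disulphide isomerase, rose by 1.91, from a mean of 31.3 ± 5.53 to 119 ± 10.02 scaled FPKM (SD, n = 3). Pdia3 rose by 0.72 and the stress factor Atf4 by 0.62, while Syvn1, the ubiquitin ligase of ER-associated degradation, fell by 0.67. In the knockout 7 rose and 4 fell, with Pdia4 at 1.35 and Syvn1 at -0.89. With LSD1 loss limma called 0 of 33 in either cell type. Without the 3 libraries named above it called 1 in TrB, higher, and 0 in eMZB. With all libraries 5 (TrB) and 2 (eMZB) were at an unadjusted p under 0.05. Over all genes, 9.91% (TrB) and 5.39% (eMZB) were under that level.

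Factors of transcription elongation and of mRNA tails were read beside Ell2 and Tent5c. Of 24 genes 22 were listed, and 3 rose and 5 fell in wild type. The share of all genes called was 27.4% in each genotype. Ell3, a relative of Ell2, rose by 0.52, while Tent5a, a poly(A) polymerase of the Tent5c family, fell by 0.99. In the knockout 1 rose and 4 fell, with Tent5a at -1.12 and Ell3 at -0.03 without a call. Ell3 had means of 20.8 ± 0.935, 23.8 ± 0.917, 30.3 ± 1.55 and 23.2 ± 1.48 scaled FPKM in TrB_WT, TrB_KO, eMZB_WT and eMZB_KO (SD, n = 3).

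The partners of IRF4 and the signals that induce it comprised 17 genes, of which 16 were listed. In wild type 4 rose and 6 fell, where 27.4% of all genes were called in each genotype. Tlr7, a receptor for single-stranded RNA, rose by 1.43 and Batf, a DNA-binding partner of IRF4, rose by 1.08. Spib, an ETS partner, fell by 1.37, and Tnfrsf13b, the receptor TACI, fell by 0.57. In the knockout 4 rose and 6 fell, with Cd40 at -1.01 and Spib at -1.56. LSD1 loss called 0 of these genes and 0 of the elongation and tail genes with limma in either cell type. With voom on recovered reads 1 of the IRF4 partners and signals was called, higher, in eMZB. At an unadjusted p under 0.05 there were 3 and 4 in TrB and 2 and 2 in eMZB. Over all genes, 9.91% (TrB) and 5.39% (eMZB) were under that level.

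The directions of these lists are relative to the median of all genes, which lies near 0 after scaling. As deposited, that median was 0.67 in wild type and 0.23 in the knockout, and the calls over all genes split into 1779 higher and 117 lower in wild type, against 1440 and 1253 after scaling, and into 387 higher and 73 lower in the knockout, against 1398 and 1297. There the other plasma cell genes had 2 higher and 0 lower in wild type and 0 higher and 1 lower in the knockout. The B cell factors had 2 higher and 1 lower in each genotype. The ER genes had 11 higher and 0 lower in wild type and 2 higher and 0 lower in the knockout. The elongation and tail genes had 3 higher and 0 lower in wild type and 0 higher and 1 lower in the knockout, and the IRF4 partners and signals 3 higher and 0 lower in wild type and 0 calls in the knockout. Without the 3 libraries named above, the plasma cell genes had 3 higher and 8 lower in wild type and 2 higher and 9 lower in the knockout.

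**Figure D4:**
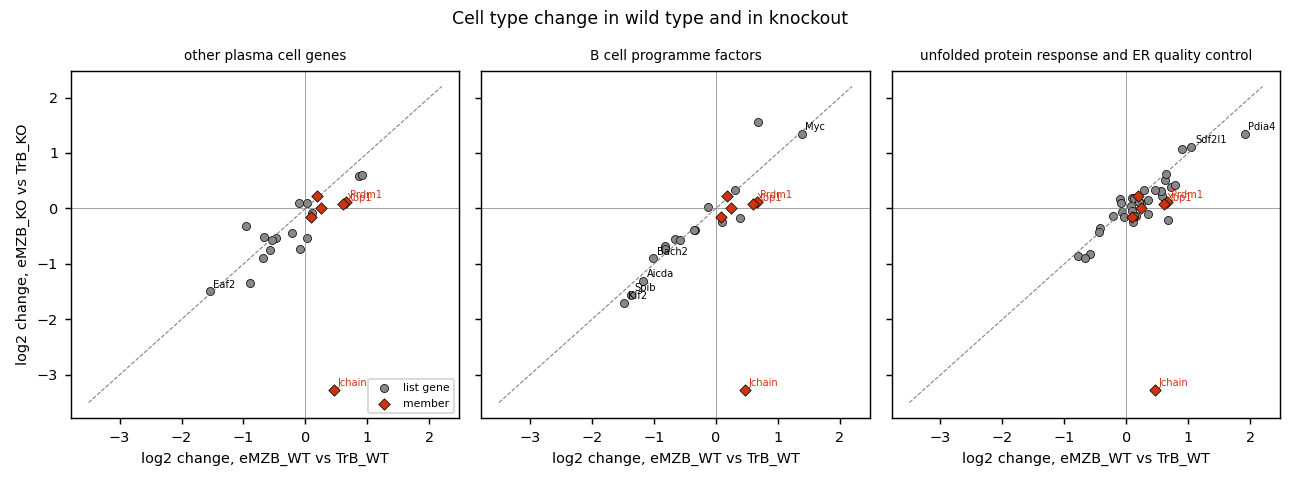
Log2 cell type change in wild type (x axis) against that in the knockout (y axis) for the listed genes of 3 lists (grey) and the 6 members (red diamonds); the dashed line marks equal change. Jchain lies apart at 0.47 and -3.27, while Prdm1 (0.66 and 0.12) and Xbp1 (0.60 and 0.07) lie below the line.

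The genes whose levels followed each member most closely across the 12 libraries were found by Pearson's r of log2(scaled FPKM + 1) among 4921 genes with a mean of at least 5 in 1 or more groups. The values describe libraries that share groups and depth, and the genes were picked as the highest of many. For Prdm1 they were Ell3 (r = 0.936), Ddx5 (0.927) and Blk (0.922). For Xbp1 they were Ninj1 (0.943), Jak1 (0.911) and Sipa1 (0.908), and for Irf4 Anapc1 (0.934), Pes1 (0.876) and Prps1l3 (0.853). Jchain was nearest to Chp1 (0.931), Pcmt1 (0.908) and Cfl2 (0.907), Ell2 to Ddost (0.877), Ccar1 (0.873) and Mfsd1 (0.863), and Edem1 to Hnrnpl (0.946), Smarcd2 (0.931) and Ccni (0.922). Prdm1 and Ell2 were below that level in every group and could not be nearest to another gene.

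**Figure D5:**
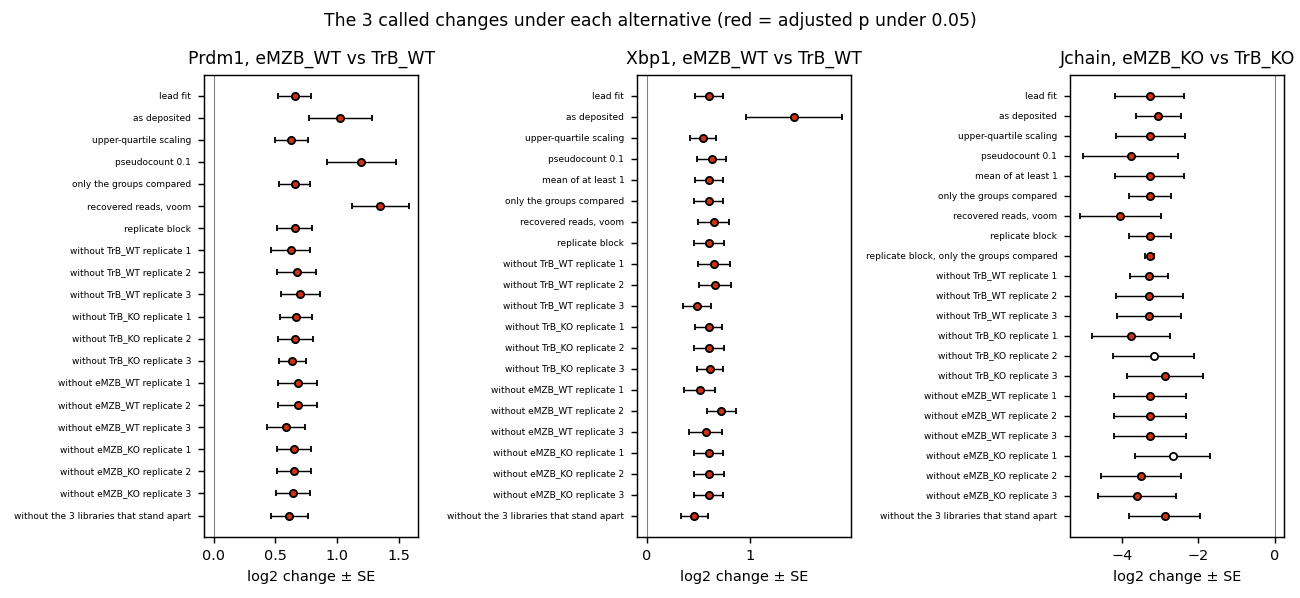
Log2 change with its SE for the 3 called member changes in the lead fit and under each alternative; filled points have an adjusted p under 0.05. Prdm1 and Xbp1 are filled throughout, and Jchain is open without TrB_KO replicate 2 and without eMZB_KO replicate 1.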

How the data were processed

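RNA-seq of 12 libraries was analysed. Per the labels' protocols, SMART-Seq v4 cDNA was made into Nextera XT libraries, a kit that keeps no strand information. STAR and mm10 appear in the submitters' processing notes; the counting program, annotation and gene lengths were not given in the sources used here. Values are FPKM as the authors deposited them, for 9842 genes with Entrez IDs, of which 9833 matched a symbol. 0 value columns were left unused.

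FPKM was divided by median-of-ratios factors (0.613 to 2.14). limma (3.58.1, R 4.3.3; eBayes with trend) was fitted to log2(scaled FPKM + 1) with 4 group means and 8 residual degrees of freedom. p-values were adjusted by Benjamini-Hochberg over all genes, and genes under 0.05 were called. Scaling leads because earlier work on these data found that the deposited scale differs between libraries. The members, gene lists, rules and alternatives were chosen with earlier results of these data known. Named genes are the members, Kdm1a, up to 4 genes per list with the smallest adjusted p, and the 3 genes most like each member; further list genes are named for their role or followed from another comparison, after their values were seen. Lists are described by counts and medians.

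Whole reads were recovered from the FPKM values for all 9842 genes, every value within 0.02 reads, for depth and for voom. Without molecular identifiers PCR copies cannot be told from separate molecules, and read numbers cover counting error only. No replicate pair differed by counting noise alone: differences exceeded it 2.57 to 18.6 times (chi-square per degree of freedom). This does not show that replicates came from separate mice. Only the fit of LSD1 loss in TrB was run on simulated data, with independent noise and with changes given only to genes above a minimum mean level. Low genes such as Prdm1 and Ell2 were below that level, so the simulation does not cover them. Python 3.11.15, numpy 2.4.6, pandas 2.3.3 and matplotlib 3.10.9 served for tables and figures.

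Same-numbered replicates deviated together with every correlation over 0.1 in 1 of 6 pairs of groups, TrB_KO and eMZB_KO (0.161, 0.106 and 0.292); the labels do not say what a number shares. Alternatives were the values as deposited, upper-quartile scaling, a pseudocount of 0.1, a mean of at least 1 scaled FPKM, only the groups compared, voom, the replicate block, each library left out, and 3 libraries left out.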

Additional observations from a re-analysis of the deposited data

How the results depend on the processing

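Depth limits Prdm1, with 24 to 35 reads per TrB_WT library, and Jchain, with 7 reads in TrB_WT replicate 1 and 30 in eMZB_KO replicate 1, and 3 libraries per group limit every comparison. The wild-type calls of Prdm1 (19 of 19 alternatives, log2 change 0.59 to 1.35) and Xbp1 (20 of 20, 0.46 to 1.42) held, and that of Jchain in the knockout held in 19 of 21. With the replicate block the Jchain change was -3.27 (limma, adjusted p = 0.00178), and in a block fit of only the knockout groups, chosen after seeing the data, the adjusted p was 3.5e-05; the block changed no member's call. Causes of the differences below were not tested, except that fewer genes or libraries enter some fits.

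Genes called with LSD1 loss in TrB numbered 49, against 19 as deposited, 9 with only the groups compared, 21 with voom and 115 without the 3 libraries that stand apart. In eMZB they numbered 40, against 15 as deposited, 65 with only the groups compared and 68 without the 3 libraries. The interaction called 1 gene, against 15 as deposited and 2 without the 3 libraries, and the knockout cell type change 2695, against 460 as deposited. Leaving out 1 library gave 28 to 54 (TrB), 15 to 52 (eMZB), 1 to 5 (interaction), 1973 to 3086 (knockout) and 1949 to 3417 (wild type). Members called moved from 0 to 1 in eMZB with voom and in the interaction as deposited, from 2 to 1 in wild type with a mean of at least 1, where Prdm1 was not tested, and ran from 0 to 1 in the knockout when 1 library was left out.

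Changes of sign touched only uncalled results. Without the 3 libraries Edem1 was -0.25 (LSD1 loss in TrB), -0.19 (wild-type change) and 0.12 (interaction). As deposited, Edem1 was 0.13 (knockout change), Ell2 0.035 (LSD1 loss in eMZB), and Irf4 0.41 (LSD1 loss in TrB) and -0.48 (interaction). With voom Ell2 was -0.0072 (knockout change) and Irf4 -0.015 (interaction). When 1 library was left out, Edem1 ran from -0.18 to 0.35 (TrB), -0.44 to 0.10 (interaction) and -0.25 to 0.29 (wild type), Ell2 from -0.064 to 0.012 (eMZB) and -0.034 to 0.042 (knockout), Irf4 from -0.083 to 0.25 (interaction) and -0.022 to 0.30 (wild type), Jchain from -0.90 to 1.20 (wild type) and Xbp1 from -0.024 to 0.18 (knockout).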
